A study of Homo sapiens with 6 samples.

Results

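The 41 genes described here encode proteins of homologous recombination, the Fanconi anemia pathway and mismatch repair, together with the checkpoint kinases that signal broken or stalled DNA. They were taken by gene symbol from a count table of 30327 genes, by a rule that uses no measured value, and the list itself was drawn up with earlier results of these data known. All 41 had enough reads to be tested, among 15801 such genes. SK-BR-3, an established human breast cancer cell line that overexpresses HER2, was sequenced as 6 poly(A) RNA libraries. A nontargeting siRNA had been given to the cells of 3 libraries (si_NC) and an siRNA against GRB2 to those of the other 3 (si_GRB2). GRB2 is an adaptor protein that links growth factor receptors such as HER2 to RAS signalling. The sample titles of the treated group say that GRB2 was overexpressed, whereas the sample descriptions name si_GRB2. No label says that the 3 libraries of a group came from separate cultures, so p-values measure the spread between these libraries, which may be technical. The question the comparison addresses is how the RNA level of each repair gene differed after GRB2 knockdown.

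GRB2 itself was examined first because it checks the labels. It had 124, 130 and 126 CPM (reads scaled to a library of 1000000, with the TMM factors of edgeR) in si_NC and 27.8, 28.1 and 29.6 CPM in si_GRB2. All 3 si_GRB2 libraries lay far below the si_NC libraries, the direction that the descriptions give and opposite to the titles. The log2 fold change was −2.15 (standard error, SE, 0.04; adjusted p = 3.87e-15 by the quasi-likelihood test of edgeR, Benjamini-Hochberg method). Libraries held between 24810378 and 28532480 reads on genes. Among 10 markers of the HER2 luminal epithelium, 9 were tested. The keratins KRT8 and KRT18 had means of 5969 and 3973 CPM in si_NC, ERBB2 had 3499 CPM, and CDH1, which encodes E-cadherin, had at most 3 reads in a library. By the same test 6 of the 9 fell, and ERBB2, which encodes HER2, rose by 0.24 on the log2 scale (adjusted p = 1.14e-06). The summed level of the 9 tested luminal markers was 20080 to 20530 CPM in si_NC and 16860 to 17520 CPM in si_GRB2. Of 10 markers of leukocytes, endothelium and fibroblasts, 4 were tested and 1 of these, the smooth muscle actin gene ACTA2, fell, from 1.72 to 0.69 CPM. The summed level of the 4 tested was 7.38 to 9.06 CPM in si_NC and 6.0 to 7.7 CPM in si_GRB2. PTPRC and PECAM1, which were not tested, had 1 read or fewer per library. The part of these markers in the results below was not tested. In bulk RNA, fewer cells of one kind and less RNA per cell cannot be told apart.

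In homologous recombination, the ends of a broken DNA molecule are trimmed by nucleases, and BRCA1, BARD1, PALB2 and BRCA2 then prepare the trimmed strand to invade the sister chromatid. The Fanconi pathway handles crosslinks between the strands: a core complex attaches ubiquitin to FANCD2 and FANCI, which then brings nucleases and the recombination proteins to the lesion. Mismatch repair proteins find and remove bases that were paired wrongly during replication. Many genes of these pathways are transcribed most in late G1 and S phase, where E2F factors bind their promoters.

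The promoters are shown first because E2F letters near the transcription start are a feature that several of the genes share and that the choice of genes did not use. RefSeq promoters (GRCh38.p14, 250 bases before to 50 after the start) were found for 37 of the 41 genes. The 4 spellings of the E2F site searched, on both strands, were TTTCCCGC, TTTCGCGC, TTTGCCGC and TTTGGCGC. At least 1 was present in 8 of these 37 genes (21.6%), against 6.58% of 10689 tested genes with a promoter and 3.99% of all 27305 genes in the RefSeq table. A gene with several annotated starts was counted if any of its promoters matched. The number of starts per gene was not matched between these sets. The 8 genes were EXO1, FANCC, FANCD2 and MSH6, which were lower in si_GRB2 by the test described below, and FANCA, PMS2, TOPBP1 and XRCC2, which were not called. The match was thus in 4 of 13 called genes with a promoter (30.8%) and in 4 of 24 genes that were not called (16.7%). CCAAT, the letters of the NF-Y site, was in a promoter of 20 of 37 genes (54.1%), against 43.1% of the tested genes with a promoter. It was in 8 of 13 called and 12 of 24 other genes. These matches are letters in a window, not measured binding. Stretches around the E2F letters of the called genes follow, with 2 genes that were not called for contrast, each written along the gene's strand with the E2F letters in capitals.
EXO1, chr1:241848174-241848233, plus strand: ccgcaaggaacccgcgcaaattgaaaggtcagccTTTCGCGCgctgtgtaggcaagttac
FANCC, chr9:95317722-95317781, minus strand: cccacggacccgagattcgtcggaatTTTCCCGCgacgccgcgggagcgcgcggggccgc
FANCD2, chr3:10026407-10026466, plus strand: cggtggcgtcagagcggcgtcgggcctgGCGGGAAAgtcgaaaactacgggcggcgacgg
MSH6, chr2:47783115-47783174, plus strand: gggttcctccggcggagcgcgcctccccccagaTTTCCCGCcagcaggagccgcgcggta
TOPBP1, chr3:133661915-133661974, minus strand: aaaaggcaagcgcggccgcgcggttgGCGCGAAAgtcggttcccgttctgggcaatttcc
XRCC2, chr7:152676112-152676171, minus strand: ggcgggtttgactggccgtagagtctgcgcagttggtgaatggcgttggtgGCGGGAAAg
The letters started 46 bases before the annotated start in FANCC and at base 5 and base 4 after it in EXO1 and MSH6. In FANCD2 they spanned the start. FANCC held a second match, 172 bases before the start, in a stretch that is not printed.

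Of the 41 genes, 15 fell in si_GRB2 and 0 rose at an adjusted p under 0.05, by the quasi-likelihood test of edgeR adjusted over all 15801 genes. The share that fell was 36.6%, whereas 15.5% of all tested genes fell and 15.2% rose. At an unadjusted p under 0.05, 19 were lower (46.3%) and 1, FANCF, was higher, against 19.8% and 19.7% of all tested genes. DESeq2 called 12 lower (29.3%) and 0 higher, against 12.1% and 11.8%. The median log2 fold change of the 41 was −0.13, with a range from −0.47 to 0.22, and the median of all tested genes was 0.00 (0.0019). The estimate was below 0 for 36 genes and above 0 for 5. Every si_GRB2 library lay below every si_NC library for 18 genes (43.9%), against 21.2% of all tested genes, and above for 1 (2.44%), against 21.1%. The changes were small, with called genes lower by between 8.45% and 27.8%. None of the 41 passed the limits the study set for a differentially expressed gene, a fold change beyond 1.5 with a p under 0.01 (taken here as adjusted), which 2.52% of tested genes passed. This count of 0 was the same with DESeq2, and at any p, since 0 of the 41 changed by more than 1.5-fold. The summed level of the 41 genes was 1491 to 1519 CPM in si_NC and 1333 to 1386 CPM in si_GRB2.

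**Figure D1:**
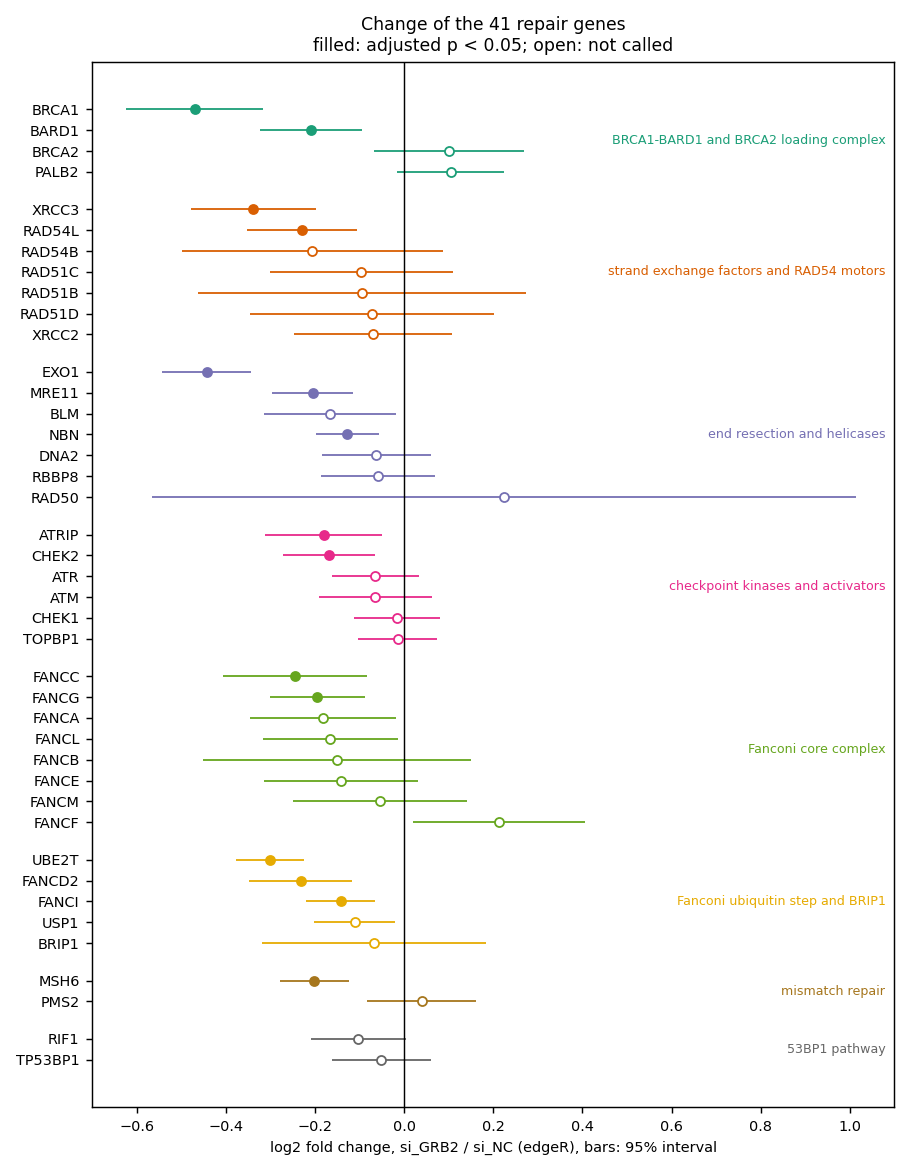
Log2 fold change of each of the 41 repair genes, si_GRB2 over si_NC, grouped by role, with bars of 95% intervals (edgeR, 3 libraries a group). The 15 filled points (adjusted p under 0.05) all lie left of 0, and the 5 points right of 0 are BRCA2, PALB2, RAD50, FANCF and PMS2.

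Scaling by library totals alone, without TMM factors, moved the median of all genes from 0.0019 to 0.05 and the share of calls that were higher from 49.5% to 66.5%, and under it 10 of the 41 genes fell (24.4%, against 11.0% of all tested genes) and 2 (FANCF and PALB2) rose (21.8% of all tested genes). On the deposited FPKM (reads or fragments per kilobase of gene, scaled for depth), limma on log2(FPKM + 1) called 2 of the 41 lower, EXO1 and UBE2T (4.88%), and 1.89% of all 29912 genes lower and 2.79% higher. These 29912 genes include many with few reads, so the 2 shares are not of like genes. Among genes with a mean of at least 1 FPKM, limma called 3 of 30 repair genes lower. In that fit it called 987 of all 10888 genes lower and 1702 higher.

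BRCA1 and BARD1, the paired ubiquitin ligase subunits that act early in recombination, both fell, and BRCA2 and PALB2, which act in the step after resection, had estimates above 0 that did not pass the test. BRCA1 (ENSG00000012048.23, minus strand of chromosome 17 of GRCh38, 43044295 to 43170245) had 15.0, 15.1 and 14.8 CPM in si_NC and 10.3, 10.5 and 11.6 CPM in si_GRB2. The si_NC libraries were nearly alike and every si_GRB2 library lay well below them. The log2 fold change of BRCA1, −0.47, was the most negative of the 41 (SE 0.07, adjusted p = 0.00012, edgeR), and with each library left out it ranged from −0.52 to −0.44. BARD1 (minus strand of chromosome 2, 214725646 to 214809683) had 26.6, 26.2 and 27.9 CPM in si_NC and 22.0, 24.1 and 23.7 CPM in si_GRB2. The groups of BARD1 did not overlap, and its log2 fold change was −0.21 (SE 0.05, adjusted p = 0.00727, edgeR). BRCA2 (plus strand of chromosome 13, 32315086 to 32400268) had 11.6, 12.8 and 10.8 CPM in si_NC against 12.2, 12.6 and 12.9 CPM. Its groups overlapped, with the si_NC libraries more spread than the si_GRB2 libraries. The log2 fold change of BRCA2 was 0.10 with a 95% interval (from the t distribution of the test) of −0.07 to 0.27, so a decrease of the size measured for BRCA1 lay outside the interval (adjusted p = 0.383, edgeR). For PALB2, the bridge between BRCA1 and BRCA2, the log2 fold change was also 0.10, with an interval from −0.02 to 0.22.

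Because BRCA1 and BARD1 proteins work as a pair, their reads were also compared within each library. The log2 ratio of BRCA1 to BARD1 counts was −0.82, −0.80 and −0.92 in si_NC and −1.09, −1.20 and −1.04 in si_GRB2. Every si_GRB2 ratio was below every si_NC ratio, the means being −0.85 ± 0.06 and −1.11 ± 0.08 (SD, n = 3). The same ratio was formed for 8 pairs of partners, chosen after the values of the genes were known. In an exact permutation test (two-sided), 3 against 3 libraries cannot go below p = 0.1, the value for BRCA1 with BARD1, and none of the 8 differences passed (adjusted p = 0.4 for that pair). The groups overlapped in the other 7, which were BRCA2 with PALB2, MRE11 with NBN, ATRIP with ATR, FANCD2 with FANCI, UBE2T with FANCL, XRCC3 with RAD51C and XRCC2 with RAD51D. For FANCD2 and FANCI, which form a clamp on DNA, the mean ratios were −1.35 ± 0.08 and −1.45 ± 0.08.

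**Figure D2:**
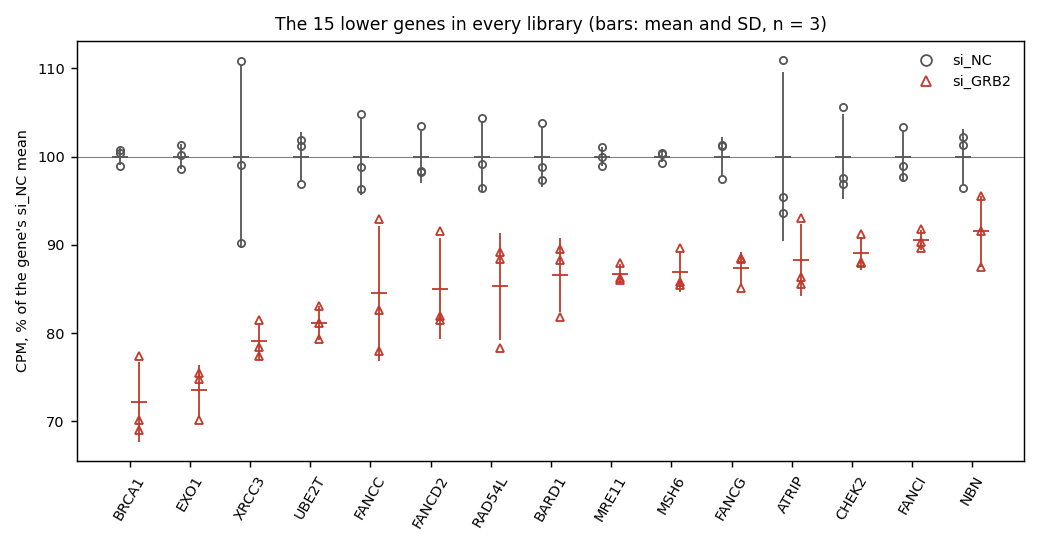
CPM of the 15 genes called lower in each of the 6 libraries, as a percentage of the gene's si_NC mean (circles si_NC, triangles si_GRB2, bars the mean and SD, n = 3). No si_GRB2 point reaches the lowest si_NC point of the same gene, and the mean decrease runs from 27.8% for BRCA1 to 8.45% for NBN by the fitted fold change.

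Among the 7 genes that assist strand exchange, including the RAD54 motor proteins, 2 fell, XRCC3 and RAD54L. XRCC3 (minus strand of chromosome 14, 103697609 to 103715504) had 25.8, 28.3 and 31.7 CPM in si_NC and 22.1, 22.4 and 23.3 CPM in si_GRB2. The si_NC libraries of XRCC3 differed from each other more than the si_GRB2 libraries did, and the groups stayed apart. XRCC3 was at −0.34 on the log2 scale (SE 0.07, adjusted p = 0.00094, edgeR), and it ranged from −0.42 to −0.26 with each library left out. Exons of KLC1 on the opposite strand cover 5756 bases (76.7%) of XRCC3's exons, and whether the counting used strand is not stated. KLC1 had 37.2 and 36.8 CPM in the groups (adjusted p = 0.856, edgeR). The neighbour ZFYVE21, whose outermost annotated start lies 226 bases from that of XRCC3 in the opposite direction, rose by 0.34 on the log2 scale (adjusted p = 9.17e-06, edgeR). RAD54L, a DNA translocase, had 28.7, 27.9 and 30.2 CPM in si_NC against 25.8, 25.6 and 22.7 CPM. The third si_GRB2 library was the lowest, and no value reached the other group. On the log2 scale RAD54L was at −0.23 (SE 0.06, adjusted p = 0.00601, edgeR). RAD51B, RAD51C, RAD51D, XRCC2 and RAD54B had log2 fold changes between −0.21 and −0.07 and none passed the test. These 5 genes had few reads, with means in si_NC from 2.99 CPM for RAD51B to 12.2 CPM for XRCC2. FSBP, a protein-coding entry on the same strand as RAD54B, shares 3511 exonic bases, 66.0% of RAD54B's. It was given 61 reads against 623 for RAD54B over the 6 libraries. Reads could be divided between these 2 entries, so the level of RAD54B is uncertain. The intervals of RAD51B (−0.46 to 0.27), RAD51D (−0.345 to 0.20) and RAD54B (−0.50 to 0.09) held the change of XRCC3, whereas those of RAD51C (−0.30 to 0.11) and XRCC2 (−0.25 to 0.11) did not.

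Of the 7 resection genes and helicases, which trim broken ends and unwind joint molecules, 3 fell, EXO1, MRE11 and NBN. EXO1 encodes an exonuclease used in both end resection and mismatch repair (plus strand of chromosome 1, 241847967 to 241895148). It had 34.7, 35.6 and 35.2 CPM in si_NC and 26.3, 26.6 and 24.7 CPM in si_GRB2. Each group of EXO1 was tight and the gap between them was several times its spread. The log2 fold change of −0.44 (SE 0.05, adjusted p = 2.87e-06, edgeR) had the smallest p of the 41 and ranged from −0.46 to −0.41 with each library left out. MRE11, the nuclease that opens resection, had 37.2, 37.6 and 38.0 CPM against 32.4, 33.1 and 32.5 CPM. Its groups were as tight, with SDs of 0.407 and 0.405 CPM, and its log2 fold change was −0.20 (SE 0.04, adjusted p = 0.00154, edgeR). NBN, which carries MRE11 and RAD50 to the break, had 361, 364 and 343 CPM in si_NC and 311, 326 and 340 CPM in si_GRB2. The third libraries of the groups lay close to each other, and by FPKM the groups of NBN overlapped. NBN had the smallest change among the called genes, −0.13 on the log2 scale (SE 0.03, adjusted p = 0.00777, edgeR), and with scaling by library totals it was at −0.077 and did not pass (adjusted p = 0.0869). The helicase BLM was at −0.17 (interval −0.31 to −0.02, adjusted p = 0.0837, edgeR), and DNA2 and RBBP8, a nuclease and a cofactor of MRE11, were both at −0.06.

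RAD50, the ATPase of the same complex, cannot be read as a level from its own entry. It was given 8 to 20 reads in a library, or 0.316 to 0.795 CPM, with no order between the groups. A second protein-coding entry, AC116366.7, lies on the same strand and shares 8124 exonic bases, 76.9% of RAD50's, and the authors' table gave it 54.2 times as many reads. AC116366.7 had 30.1 ± 0.604 CPM in si_NC and 30.4 ± 0.594 CPM in si_GRB2 (SD, n = 3), and its log2 fold change was 0.01 (SE 0.05, adjusted p = 0.901, edgeR). The RAD50 value among the 5 estimates above 0, 0.22 with a SE of 0.37, is therefore not read as a level of the gene.

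**Figure D3:**
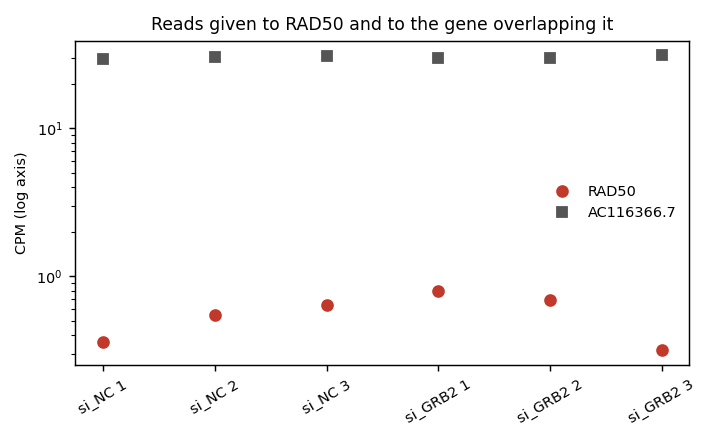
CPM (log axis) given to RAD50 and to AC116366.7, the entry sharing most of its exons, in each library. RAD50 sits below 0.8 CPM in all 6 libraries and AC116366.7 near 30 CPM in all 6, and for neither do the groups separate.

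Of the 6 checkpoint genes, the kinases themselves did not pass the test apart from CHEK2, and the other gene that fell was ATRIP. ATM, the kinase that responds to double-strand breaks, had 18.0, 17.1 and 16.8 CPM in si_NC and 16.3, 16.8 and 16.5 CPM in si_GRB2. The groups of ATM touched, and its log2 fold change was −0.06 (interval −0.19 to 0.06, adjusted p = 0.475, edgeR). ATR, the kinase of stalled replication forks, had 34.8, 32.2 and 33.2 CPM against 31.9, 32.1 and 31.9 CPM. Its groups were apart by a small margin, and its log2 fold change of −0.06 (−0.065) had an interval from −0.16 to 0.03 (adjusted p = 0.328, edgeR). ATRIP, the obligate partner of ATR, had 32.7, 33.4 and 38.8 CPM in si_NC and 32.5, 30.2 and 29.9 CPM in si_GRB2. One si_NC library of ATRIP stood above the others, and the first si_GRB2 library nearly reached the lowest si_NC library. ATRIP was at −0.18 on the log2 scale (SE 0.06, adjusted p = 0.0356, edgeR). It did not pass without si_NC replicate 3, si_GRB2 replicate 2 or si_GRB2 replicate 3, and the weakest of these fits gave −0.10 with an adjusted p of 0.178 (edgeR).

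CHEK1, the effector kinase below ATR, had 37.7, 37.7 and 37.5 CPM in si_NC and 35.3, 37.6 and 38.7 CPM in si_GRB2. The si_NC libraries of CHEK1 fell within the range of the si_GRB2 libraries, and the log2 fold change was −0.02 (interval −0.11 to 0.08, adjusted p = 0.84, edgeR). CHEK2, the effector below ATM, had 36.4, 33.4 and 33.6 CPM against 31.5, 30.4 and 30.3 CPM. One si_NC library stood above the others, and the groups did not overlap. CHEK2 was at −0.17 on the log2 scale (SE 0.05, adjusted p = 0.0146, edgeR), and it did not pass without si_NC replicate 1 or si_GRB2 replicate 2 (largest adjusted p 0.074). TOPBP1, the activator of ATR, was at −0.01 with an interval from −0.10 to 0.07. For CHEK1 and TOPBP1 the sign of the estimate turned under scaling by library totals and in limma on FPKM.

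Among the 8 Fanconi core complex genes, 2 fell, FANCC and FANCG. FANCC, an adaptor subunit, had 15.3, 14.9 and 16.2 CPM in si_NC and 12.0, 12.7 and 14.3 CPM in si_GRB2. The si_GRB2 libraries were the more spread, and the highest of them came near the lowest si_NC library. FANCC was at −0.24 on the log2 scale (SE 0.08, adjusted p = 0.022, edgeR), which did not pass without si_NC replicate 3, si_GRB2 replicate 1 or si_GRB2 replicate 2 (largest adjusted p 0.0982). AOPEP, which shares 165 exonic bases with FANCC on the opposite strand, rose from 45.5 to 57.5 CPM (adjusted p = 3.89e-05, edgeR). FANCG, which joins subunits of the complex, had 25.3, 26.3 and 26.4 CPM in si_NC against 23.0, 22.1 and 23.0 CPM. Both groups were tight and apart, and the log2 fold change was −0.20 (SE 0.05, adjusted p = 0.00698, edgeR).

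FANCF, another adaptor subunit, was the 1 gene of the 41 with every si_GRB2 library above every si_NC library. It had 10.09, 9.22 and 10.16 CPM in si_NC and 11.01, 10.49 and 12.72 CPM in si_GRB2, for a log2 fold change of 0.21 (interval 0.02 to 0.41) that did not pass the test (adjusted p = 0.0902, edgeR). FANCA and FANCL, the latter the ubiquitin ligase of the complex, were at −0.18 and −0.17 with adjusted p of 0.0888 and 0.0934 (edgeR). On the opposite strand, ZNF276 shares 2409 exonic bases with FANCA and VRK2 shares 572 with FANCL. ZNF276 was at −0.12 (adjusted p = 0.108, edgeR) and VRK2 fell, at −0.22 (adjusted p = 0.0369, edgeR). The other 3 core genes, FANCB, FANCE and the translocase FANCM, were at −0.15, −0.14 and −0.05.

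In the ubiquitin step of the Fanconi pathway 3 of 5 genes fell. UBE2T encodes the E2 enzyme that brings ubiquitin to FANCL (minus strand of chromosome 1, 202331544 to 202341984). It had 92.5, 97.4 and 96.7 CPM in si_NC and 79.4, 75.7 and 77.5 CPM in si_GRB2. The lowest si_NC library of UBE2T was well above the highest si_GRB2 library. Its log2 fold change of −0.30 (SE 0.04, adjusted p = 1.0e-05, edgeR) ranged from −0.33 to −0.28 with each library left out. FANCD2, a substrate of that step, had 30.6, 30.6 and 32.2 CPM in si_NC against 25.6, 28.6 and 25.4 CPM. Its second si_GRB2 library was the highest of its group, still below si_NC, while by FPKM the groups overlapped. The log2 fold change of FANCD2 was −0.23 (SE 0.05, adjusted p = 0.00359, edgeR). FANCI, the other substrate, had 78.8, 82.3 and 77.8 CPM against 71.4, 73.1 and 71.9 CPM. These groups were apart, by a margin about as wide as the spread of si_NC, and FANCI was at −0.14 on the log2 scale (SE 0.04, adjusted p = 0.00704, edgeR). With scaling by library totals FANCI was at −0.09 and did not pass (adjusted p = 0.0636, edgeR). USP1, the enzyme that takes the ubiquitin off again, was at −0.11 (interval −0.20 to −0.02, adjusted p = 0.0632, edgeR), and BRIP1, a helicase that binds BRCA1, was at −0.07 with 6.19 to 8.41 CPM over the 6 libraries.

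Of the 2 mismatch repair genes, MSH6 fell and PMS2 did not pass the test. MSH6, a subunit of the complex that recognises mispaired bases, had 79.9, 79.9 and 79.1 CPM in si_NC and 71.4, 68.3 and 68.1 CPM in si_GRB2. The si_NC libraries of MSH6 were within 1 CPM of each other and all lay above si_GRB2. On the log2 scale MSH6 was at −0.20 (SE 0.04, adjusted p = 0.000437, edgeR), ranging from −0.22 to −0.19 with each library left out. FBXO11 shares 4022 exonic bases with MSH6 on the opposite strand and had 45.0 and 44.8 CPM in the groups (adjusted p = 0.951, edgeR). PMS2, which cuts the strand that carries the error, was at 0.04 (interval −0.08 to 0.16). PMS2 is uncertain, since 13 copies of it in the table, mostly pseudogenes, held 7200 reads against its own 3180, and reads could be divided among them.

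TP53BP1 and RIF1, which protect broken ends from resection, did not pass the test. Their log2 fold changes were −0.05 and −0.10, with intervals from −0.16 to 0.06 and from −0.21 to 0.003. TUBGCP4, which shares 3732 exonic bases with TP53BP1 on the opposite strand, fell from 65.1 to 51.7 CPM (adjusted p = 7.49e-06, edgeR).

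A neighbour starting within 1000 bases on the opposite strand was found for 10 of the 41 genes, looked up after the values were known. Starts here were the outermost ends of the GENCODE entries, which can lie far from the RefSeq starts used for promoters. For MSH6 the entry began at base 47695530, whereas the printed promoter stretch began at 47783115. The distances are therefore between ends of entries, not between measured promoters. By the same test 0 of the 10 neighbours fell and 2 rose, ZFYVE21 beside XRCC3 and MOSPD2 beside FANCB. Of all tested genes 15.5% fell and 15.2% rose, and no difference of the neighbours from these shares was tested. NBR1, whose entry starts 236 bases from the outermost end of the BRCA1 entry, was at −0.03 on the log2 scale (adjusted p = 0.768, edgeR). Whether this end is the start that these cells use for BRCA1 was not tested.

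Levels per length spanned a wide range among the 41 genes. By the deposited FPKM, UBE2T with 46.5 ± 2.67 and NBN with 46.4 ± 0.705 (SD, n = 3, si_NC) were the highest, and their libraries overlapped. USP1 followed with 21.9 ± 0.295 FPKM, apart from its neighbours on both sides. Next came EXO1 with 6.83 ± 0.29 FPKM, and from there 27 genes lay between 1 and 10 FPKM and 11 below 1 FPKM. BRCA1, at 1.29 ± 0.04 FPKM in si_NC and 0.96 ± 0.08 FPKM in si_GRB2, held rank 29, BRCA2 at 0.74 ± 0.05 FPKM rank 35, and ATM at 0.357 ± 0.01 FPKM rank 38. Of the 40 steps in this order, 29 joined genes whose si_NC libraries overlapped. The length the authors used is not stated, and it can move a gene: FANCL held rank 5 by FPKM and rank 34 by CPM per kilobase of its 37977 annotated exonic bases. All 15 called genes had a lower mean FPKM in si_GRB2, and for 10 of them the groups of FPKM did not overlap. The other 5 were FANCC, FANCD2, FANCI, NBN and ATRIP. Counts and FPKM come from the same libraries, so the FPKM are not separate evidence for these calls. The share of all genes with FPKM groups apart was not computed.

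**Figure D4:**
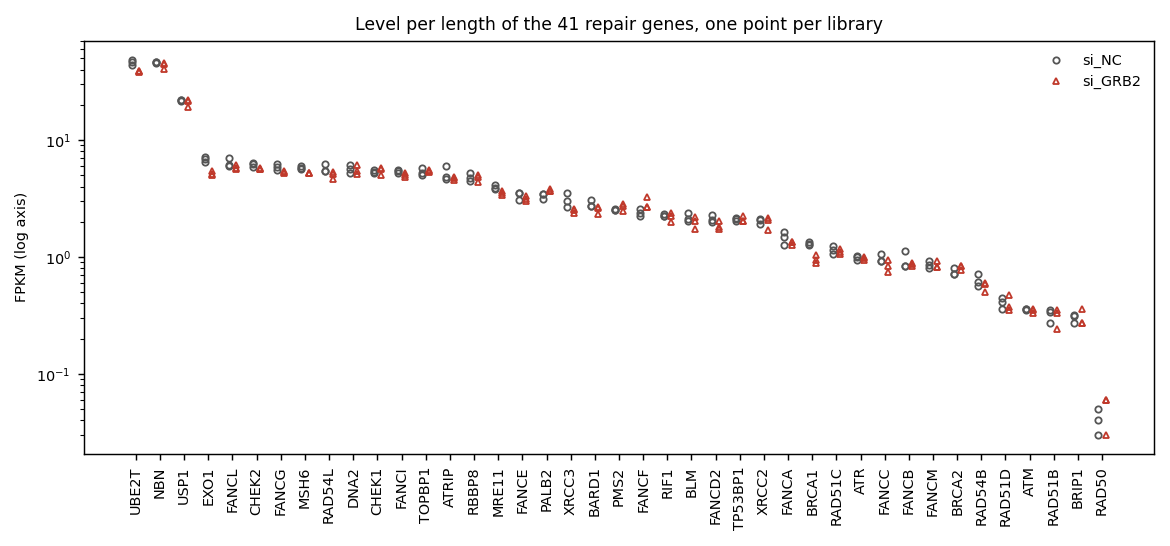
FPKM (log axis) of the 41 repair genes in each library, ordered by the si_NC mean (circles si_NC, triangles si_GRB2). UBE2T, NBN and USP1 stand above 10 FPKM, most of the others lie between 1 and 10, and RAD50, most of whose exons another entry shares, is last at 0.04 FPKM.

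Repair genes outside the 41 were read from 4 further lists. Of their 69 tested genes, 14 fell and 4 rose (edgeR, as above), with a median log2 fold change of −0.03 (−0.0295). These shares, 20.3% and 5.8%, stand beside 15.5% and 15.2% of all tested genes, and with scaling by library totals 11 of the 69 fell and 11 rose. Among other recombination and Fanconi genes, 6 of 31 fell and 1 rose. RMI2, a partner of BLM, was at −0.31 (adjusted p = 5.76e-05), the resolvase gene GEN1 at −0.19 (adjusted p = 0.00206), and the nuclease gene FAN1 at 0.13 (adjusted p = 0.0339). Of 7 other genes that act in mismatch repair 3 fell, among them PCNA, the sliding clamp of replication, at −0.31 (adjusted p = 4.16e-07) and the ligase gene LIG1 at −0.33 (adjusted p = 7.33e-05), both of which also serve replication. Break signalling and end protection genes went both ways, with 3 of 20 lower and 2 higher. H2AX, the histone marked at breaks, and CLSPN, the adaptor for CHEK1, were at −0.26 (adjusted p = 8.94e-05) and −0.25 (adjusted p = 0.00233). SHLD2, of the shieldin complex, and ETAA1, an activator of ATR, were at 0.39 (adjusted p = 2.68e-05) and 0.33 (adjusted p = 0.00263). Among 11 end joining genes 2 fell, PARP1 at −0.15 (adjusted p = 0.00047) and NHEJ1 at −0.22 (adjusted p = 0.0412), and 1 rose, the ligase gene LIG4 at 0.28 (adjusted p = 0.0216). DESeq2 called 1 end joining gene lower and 0 higher, and scaling by library totals 1 lower and 3 higher. The lower count was also 1 without si_NC replicate 2, si_GRB2 replicate 1 or si_GRB2 replicate 2, and 3 without si_NC replicate 1. The higher count was 0 without si_NC replicate 1, si_NC replicate 3, si_GRB2 replicate 2 or si_GRB2 replicate 3.

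Cell cycle genes were read from a list of S phase genes and a list of G2 and M phase genes. Of 30 S phase genes, 22 fell and 0 rose (edgeR, as above), with 23 lower and 0 higher at an unadjusted p under 0.05 and 21 and 0 by DESeq2. Their median log2 fold change was −0.21, and their summed level was 3477 to 3509 CPM in si_NC and 3059 to 3111 CPM in si_GRB2. RRM2, a subunit of ribonucleotide reductase, was at −0.31 (adjusted p = 3.39e-07) and CDC6, which loads the replicative helicase, at −0.26 (adjusted p = 1.05e-06). Of 24 tested G2 and M phase genes, 18 fell, with a median of −0.13 and a summed level of 2934 to 3020 CPM in si_NC and 2605 to 2679 CPM in si_GRB2. UBE2C, of the mitotic ubiquitin machinery, was at −0.31 (adjusted p = 1.89e-06) and CDK1, the mitotic kinase, at −0.27 (adjusted p = 4.98e-06). The count for this list was 11 without si_NC replicate 2 or without si_GRB2 replicate 1, and 8 with scaling by library totals. Limma on log2(FPKM + 1) called 4 of the S phase genes and 2 of the G2 and M phase genes lower. The part of these cell cycle genes in the decrease of the 15 repair genes was not tested.

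**Figure D5:**
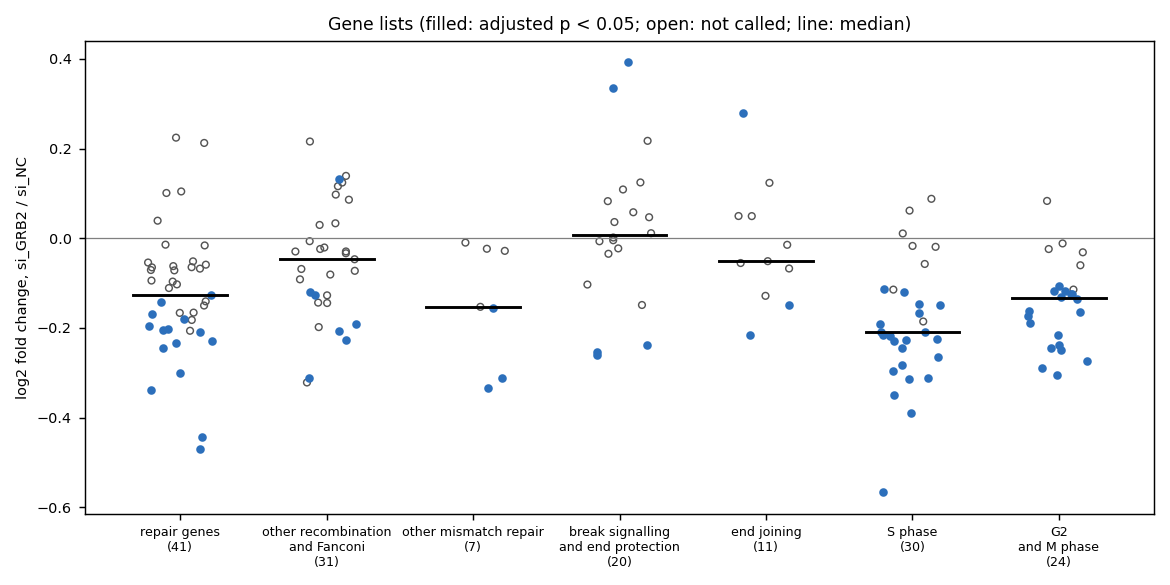
Log2 fold change of every tested gene in 7 lists, with the number tested under each name (filled points passed at adjusted p under 0.05, horizontal lines are medians). The 41 repair genes have a median of −0.13, the S phase genes −0.21, the G2 and M phase genes −0.13, and the break signalling genes 0.01.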

How the data were processed

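Strand-specific poly(A) libraries of SK-BR-3, 3 si_NC and 3 si_GRB2, were grouped by the sample descriptions. The authors trimmed reads with FASTX-Toolkit, aligned them to GRCh38 with HISAT2, and deposited uniquely mapped reads as a raw count per gene. FPKM per gene were also deposited by the authors, rounded to 2 decimals. The counting tool, its use of strand, the annotation release and the FPKM total are not given in the sources used here. The 41 genes and the other lists were chosen with earlier results of these data known.

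Counts were tested with edgeR 4.0.16 in R 4.3.3 (TMM, filterByExpr, glmQLFit, glmQLFTest, two-sided, no covariate), and p-values were adjusted over the 15801 genes kept by the Benjamini-Hochberg method. The SE of a log2 fold change is its size over the root of the F statistic, and 95% intervals use the t distribution with the degrees of freedom of the test. CPM are TMM-scaled. The common biological coefficient of variation was 3.75%, and total counts per library were 24810378 to 28532480. In simulated counts (15617 genes tested) the same test recovered 86% of 50 genes changed by 1.5-fold and 98% of 50 changed by 2-fold, while 3.52% of the genes it called had not been changed. Every simulated gene was given this common variation of 3.75%, with no difference between genes, so recovery in the real data may be lower. The power for smaller changes was not simulated.

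All 41 genes are named. Values in every library are given for genes with an adjusted p under 0.05 and for BRCA1, BRCA2, ATM, ATR, CHEK1, FANCD2 and MSH6, and of FANCF, which was chosen after its values were seen. Of the other lists, the 2 genes with the smallest p in each direction are named, as are ERBB2, KRT8, KRT18, ACTA2 and the overlapping and neighbouring genes, chosen after their values were seen. Overlaps, positions and exonic lengths came from GENCODE 44 on GRCh38, which lists all 41 genes, 20 with the version of the identifier in the table. Promoters came from RefSeq on GRCh38.p14. Alternatives were DESeq2 1.42.0, other scalings, filters and p limits, a robust fit, a replicate block, limma 3.58.1 on log2 FPKM with pseudocounts of 1 and 0.1, and leaving out each library. Python 3.11.15, numpy 2.4.6, pandas 2.3.3, scipy 1.17.1 and matplotlib 3.10.9 made tables and figures.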

Additional observations from a re-analysis of the deposited data

How the results depend on the processing

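The number of the 41 genes called lower was 15, and between 10 and 19 in every alternative on counts, 13 to 16 with 1 library left out among them. The 10 came with library totals, where 11.0% of all tested genes were lower. An unadjusted p under 0.05 gave 19, beside 19.8% of all tested genes. With 1 library left out, between 1965 of 16113 and 2324 of 16079 tested genes were called lower. Limma on FPKM called 2 with a pseudocount of 1, 2 with 0.1, and 3 of 30 with a mean of at least 1 FPKM. Of all genes, these fits called 566 of 29912, 607 of 29912 and 987 of 10888 lower. The cause of the smaller number of calls in limma was not tested. The number called higher was 0, but 2 with scaling by library totals (FANCF 0.26 and PALB2 0.15), and 1, FANCF, at an adjusted p under 0.1 and at an unadjusted p under 0.05. Of 685 refits of single genes 602 kept their sign and their side of the threshold, 53 were lost calls, 15 were gained and 15 changed sign, none of these 15 a called gene. CHEK1 and TOPBP1 turned to 0.0341 and 0.0358 with library totals, 0.0224 and 0.0251 in limma on FPKM with a pseudocount of 1, with or without the filter, and 0.0258 and 0.0295 with 0.1. With 1 library left out, the estimates ran from −0.11 to 0.0026 for RBBP8, −0.0422 to 0.0125 for TOPBP1, −0.0457 to 0.0199 for CHEK1, −0.0148 to 0.52 for RAD50, −0.12 to 0.0055 for XRCC2, −0.21 to 0.0216 for BRIP1 and −0.19 to 0.0542 for RAD51B. Of the 15 called genes 12 were called in every such fit, the others being ATRIP, CHEK2 and FANCC, which DESeq2 also did not call. Scaling by library totals lost the same 3 and NBN and FANCI. GRB2 kept a log2 fold change between −2.18 and −1.91. The 9 genes under 10 CPM in si_NC, such as RAD51B, had SEs from 0.09 to 0.37, which limits what could be detected.

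Libraries of the groups share only a replicate number. The correlations of same-numbered deviations were 0.23, −0.10 and 0.08, and not every library correlated best with its own number. A fit with a replicate block called 15 of the 41 lower, all 15 of them shared with the fit without it, and 0 higher.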
